A study of Mus musculus with 9 samples.

Results

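The 10 genes described here belong to the Nrf2 antioxidant response and to the control of ferroptosis, and they were followed in brain RNA of mice with and without intracerebral hemorrhage (ICH). The genes were chosen by name. They were Nfe2l2, Keap1, Nqo1, Gclc, Gclm, Srxn1, Txnrd1, Slc7a11, Gpx4, and Acsl4, and these 10 genes were all found among the 38621 genes of the deposited table. All 9 samples came from male C57BL/6 mice, whose age is not given in the sources used here. The 3 sham mice received no blood. They are described as injected with saline in the study's methods and as untreated in the sample labels. The 3 ICH mice received an injection of 30 μl of their own whole blood into the brain. The 3 feb mice received the same injection after febuxostat by gavage at 50 mg/kg per day for 5 days. Febuxostat is an inhibitor of xanthine oxidase, an enzyme that releases superoxide and hydrogen peroxide as it makes urate. Injected blood models the effects of a hematoma but not the rupture of a vessel, and neither the brain region nor the time after injection is given for these samples.

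Nrf2, the protein of Nfe2l2, is a transcription factor that is held at a low level by Keap1, an adaptor that hands it to a ubiquitin ligase. Oxidants and electrophiles modify cysteines of Keap1, after which Nrf2 accumulates, pairs with a small Maf protein, and binds antioxidant response elements near its target genes. In brain, this response is usually described as stronger in astrocytes than in neurons. Ferroptosis is a death of cells by iron-dependent peroxidation of membrane lipids, and it is studied after ICH because hemoglobin of the lysed blood releases heme and iron. Several targets of Nrf2 supply the cystine, glutathione, and reducing power that oppose it. Because much of the control of Nrf2 acts on the protein, the mRNA of Nfe2l2 and Keap1 need not follow its activity.

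Promoter sequences are shown for Srxn1, Slc7a11, and Acsl4, the 3 members with an unadjusted p under 0.05 in any comparison. The windows were taken from RefSeq (GRCm38.p6) and run from 250 bases before to 50 bases after the transcription start, 5′ to 3′ on the strand of the gene. Capitals mark the core of the antioxidant response element, TGACNNNGC, where N is any base, searched on both strands. The windows are chr2:152105274-152105573 on the plus strand for Srxn1, chr3:50443564-50443863 on the minus strand for Slc7a11, and chrX:142390486-142390785 on the minus strand for Acsl4.
Srxn1: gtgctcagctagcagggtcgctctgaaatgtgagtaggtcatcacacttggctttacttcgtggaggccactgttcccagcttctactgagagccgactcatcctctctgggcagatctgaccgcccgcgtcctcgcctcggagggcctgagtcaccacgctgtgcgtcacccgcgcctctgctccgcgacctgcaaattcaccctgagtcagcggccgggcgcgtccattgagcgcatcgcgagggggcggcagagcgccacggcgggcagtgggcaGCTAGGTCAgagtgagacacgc
Slc7a11: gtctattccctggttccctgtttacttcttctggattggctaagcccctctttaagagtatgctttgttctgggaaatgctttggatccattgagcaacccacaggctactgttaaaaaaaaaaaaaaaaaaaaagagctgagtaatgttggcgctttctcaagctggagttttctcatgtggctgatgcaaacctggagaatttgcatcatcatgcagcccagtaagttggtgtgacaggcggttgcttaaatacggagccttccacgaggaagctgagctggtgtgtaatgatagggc
Acsl4: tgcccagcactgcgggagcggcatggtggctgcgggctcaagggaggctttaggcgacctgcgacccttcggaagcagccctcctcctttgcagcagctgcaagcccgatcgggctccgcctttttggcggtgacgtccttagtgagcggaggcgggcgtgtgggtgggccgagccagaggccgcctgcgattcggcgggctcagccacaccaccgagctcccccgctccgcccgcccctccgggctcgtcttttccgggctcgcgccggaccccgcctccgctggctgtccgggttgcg
The Srxn1 window held 1 match, GCTAGGTCA, on the opposite strand and beginning 29 bases into the transcript, counting the first transcribed base as 1. The windows of Slc7a11 and Acsl4 held none of these letters. Windows were found for 9 of the 10 genes, with 14 windows in all since some genes have several starts, and Gclc had none. A match was present for 4 of the 9, which were Srxn1, Nfe2l2 (TGACTCCGC), Gclm (GCACCGTCA), and Txnrd1 (GCTTTGTCA). Of the 27025 genes with a window, 14% held a match, as did 12.4% of all 32851 windows. A match of this short motif is a description of the sequence and not a measured binding site.

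Values are RPKM, the reads of a gene divided by exon length and by sequencing depth, so levels of different genes can be compared per length. The depth was 23065757 to 29538009 gene-assigned reads per sample. The members rested on 43 to 89 reads per sample for Nqo1, the least covered, and on 1749 to 2643 for Gpx4. Markers of other cells differed between the groups. The summed RPKM of 6 choroid plexus markers was 364 to 1031 in the sham group and 457 to 965 in the ICH group but 30.3 to 87.8 in the feb group, and all 6 genes had an unadjusted p under 0.05 for feb against ICH. Lower values in the feb than in the ICH group, at the same threshold, were found for 4 of 5 microglia markers (summed RPKM 24.6 to 32.4 in sham, 29.9 to 47.8 in ICH, and 21.9 to 26.8 in feb), 3 of 4 endothelial markers (26.5 to 32.3, 25.9 to 34.3, and 20.4 to 27.0), and 4 of 5 red blood cell genes (32.3 to 40.6, 26.7 to 123.8, and 17.1 to 21.6). Markers of cortical neurons were higher in the ICH than in the sham group for 4 of 5 genes (10.3 to 22.2, 25.6 to 46.6, and 27.2 to 30.4). At the same threshold, 3 of the 5 genes were lower in the feb than in the ICH group. Neurod6 and Rorb were not, with means of 17.5 and 6.82 RPKM in feb against 14.5 and 6.40 in ICH. None of the genes of these 5 lists was at 0 in any sample. Of 6 genes of infiltrating leukocytes, 2 passed the filter on low values, and 2 were at 0 in some sample. The summed RPKM of 5 striatal neuron markers was 99.4 to 557.1 in sham, 232.2 to 479.4 in ICH, and 190.5 to 373.0 in feb mice. At the same threshold, 0 of these 5 differed in any comparison. For 4 thalamic neuron markers the sums were 85.3 to 142.5, 20.4 to 107.1, and 53.9 to 139.6, and 1 of the 4 was lower in ICH than in sham mice. The remaining red blood cell gene, Alas2, had its highest mean in the feb group (3.16 RPKM in sham, 3.85 in ICH, and 5.48 in feb). In single samples, ICH 1 had the highest red blood cell sum (123.8), while ICH 2 (27.7) and ICH 3 (26.7) lay below every sham mouse. ICH 2 had the highest astrocyte sum (736.1, against 183 to 311 in the other samples). Most of that sum in ICH 2 was Gfap alone (573.5). The other astrocyte markers were mixed there, with Aldh1l1 (22.3) the highest and Gja1 (50.4) the lowest of all mice. The part of these differences in the results for the 10 genes was not tested, and in RNA of whole tissue fewer cells of a type and less RNA per cell cannot be told apart.

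The levels of the 10 genes covered a wide range with the same genes at its ends in every group. Gpx4 was highest, at 49.7 ± 3.47 RPKM (SD, n = 3) in sham mice, followed by Txnrd1 (23.2 ± 1.47) and Srxn1 (23.1 ± 1.31), whose ranges overlapped. Gclc (12.6 ± 1.31), Keap1 (12.03 ± 0.357), and Acsl4 (11.01 ± 1.74) formed the next level, and the ranges of neighbors in this order overlapped. Gclm (4.21 ± 0.222), Nfe2l2 (3.06 ± 0.338), Slc7a11 (2.70 ± 0.321), and Nqo1 (1.49 ± 0.291) were lowest, and of these only Nfe2l2 and Slc7a11 overlapped in sham mice. Thus, the catalytic subunit of glutamate-cysteine ligase, Gclc, had more reads per length than the modifier subunit Gclm in each of the 9 mice. In the ICH group, Txnrd1 (24.8 ± 1.95) and Srxn1 (18.3 ± 0.239) no longer overlapped, while in the feb group (22.8 ± 2.04 and 22.6 ± 2.01) they did. The plot of RPKM by mouse shows these levels.

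**Figure D1:**
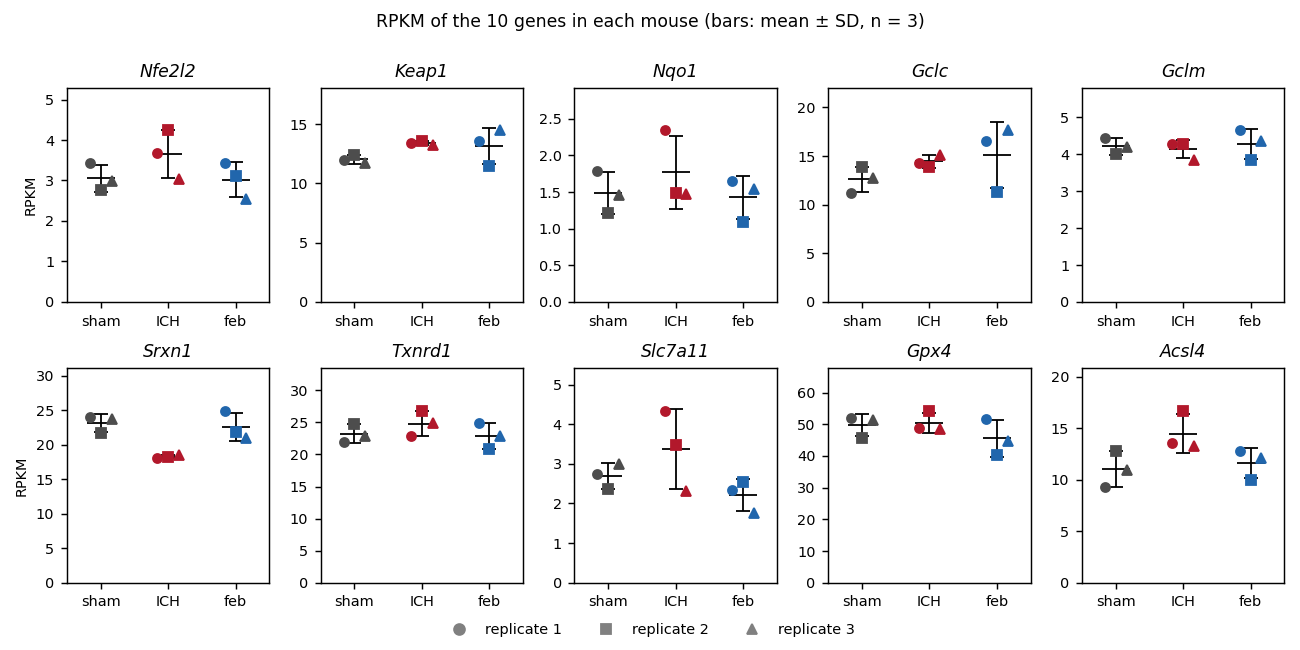
RPKM (vertical axes, from 0) of the 10 genes in each of the 9 mice by group (horizontal axes), with the replicate number as the symbol and the mean ± SD of 3 mice as black bars. The 3 ICH mice lay between 18.0 and 18.5 for Srxn1, below every sham and feb mouse, whereas the groups overlapped in most other panels.

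No member met the criteria of the study, an unadjusted p under 0.05 with a fold change over 2, in any of the 3 comparisons. Tests were made with limma on log2(RPKM + 0.1) over 29025 genes, and fold changes are given on that scale. These criteria were met by 2.53% of all genes tested for ICH against sham, 2.43% for feb against ICH, and 2.20% for feb against sham. The study applied them in a test of counts (edgeR), so genes that met them here need not be those it called. It called fewer genes than the 735 for ICH against sham and the 706 for feb against ICH found here. At an unadjusted p under 0.05 alone, 1 member was higher in ICH than in sham mice (Acsl4), where 7.88% of all genes were, and 1 was lower (Srxn1), where 4.42% were. For feb against ICH, 1 member was higher (Srxn1), where 4.90% of all genes were, and 1 was lower (Slc7a11), where 6.16% were. For feb against sham, 0 of 10 members passed in limma at this unadjusted threshold, where 5.63% of all genes were higher and 2.90% were lower, and limma with voom on the recovered reads also found 0. After Benjamini-Hochberg adjustment over all genes, the lowest adjusted p of a member was 0.334 for ICH against sham, 0.294 for feb against ICH, and 0.681 for feb against sham. Across the table, 7, 2, and 1 genes had an adjusted p under 0.05 in the 3 comparisons. The median log2 fold change of the 10 genes was 0.18, -0.14, and -0.02, and that of all genes tested was 0.08, -0.01, and 0.05. The comparisons share mice, since the ICH group enters 2 of them, so a high or low ICH value moves both in opposite directions. With 3 mice against 3, an exact two-sided permutation test of a single gene cannot give a p below 0.1.

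**Figure D2:**
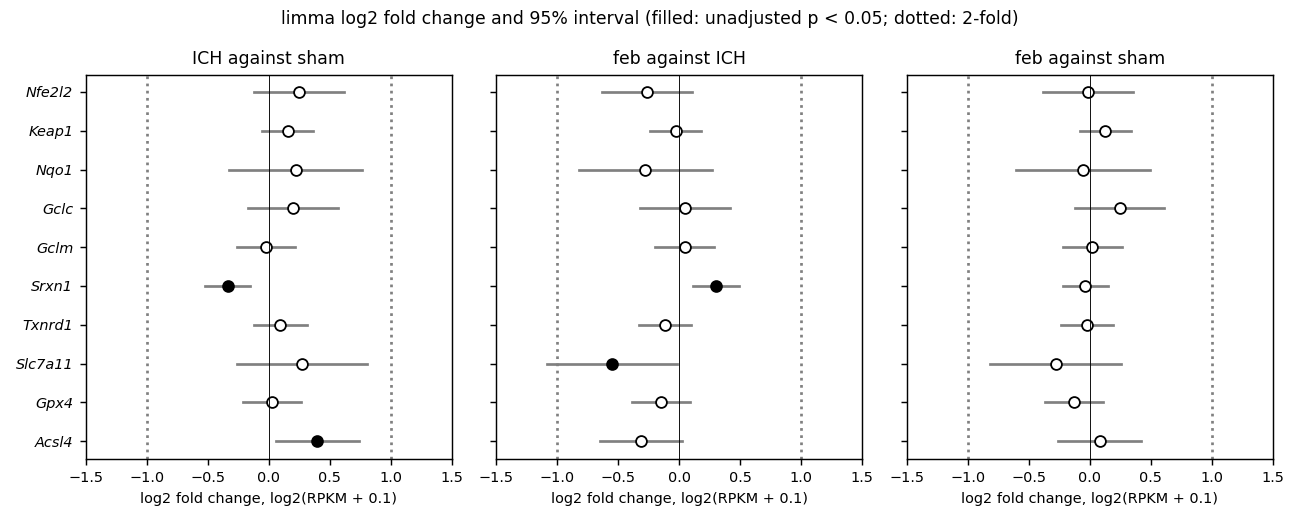
log2 fold change (horizontal axis, log2(RPKM + 0.1) scale) of each gene with its 95% interval from limma in the 3 comparisons, with n = 3 mice per group, filled circles for an unadjusted p under 0.05, and dotted lines at 2-fold. All 30 estimates lay within the dotted lines, and 4 had an unadjusted p under 0.05.

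Gene positions are those of the deposited table, on GRCm38. Srxn1, on chromosome 2 (152105516 to 152111376, plus strand), encodes sulfiredoxin, which restores overoxidized peroxiredoxins and is a target of Nrf2. Together with Acsl4, it was 1 of 2 members whose 3 ICH mice did not overlap the other 6 mice, as was so for 6.57% of all genes tested. Srxn1 was at 24.1, 21.7, and 23.7 RPKM in sham, 18.0, 18.3, and 18.5 in ICH, and 24.8, 21.9, and 21.0 in feb mice. The ICH values lay in a narrow range below both other groups, which overlapped each other. The fold of ICH over sham was 0.791 (95% interval 0.695 to 0.900, log2 fold change -0.34, adjusted p = 0.334). The fold of feb over ICH was 1.23 (95% interval 1.08 to 1.40, log2 fold change 0.30, adjusted p = 0.294). The unadjusted p was under 0.05 for both, and the exact two-sided permutation p was 0.1, the smallest that 3 mice against 3 allow. These values rest on the same 3 ICH mice, so they are not independent of each other. Feb over sham gave a fold of 0.974 (95% interval 0.856 to 1.11, adjusted p = 0.908). The unadjusted p stayed under 0.05 in all 16 other settings, with a log2 fold change from -0.45 to -0.31 for ICH against sham and from 0.23 to 0.35 for feb against ICH. These differences were smaller than 2-fold and did not pass adjustment over all genes.

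The transcription factor and its repressor had no unadjusted p under 0.05 in any comparison. Nfe2l2 (chromosome 2, 75675513 to 75704641, minus strand) was at 3.42, 2.76, and 2.98 RPKM in sham, 3.69, 4.24, and 3.05 in ICH, and 3.42, 3.10, and 2.55 in feb mice. The 3 groups overlapped, with 2 of the ICH mice above every other mouse. Its fold was 1.19 (95% interval 0.918 to 1.53, adjusted p = 0.526) for ICH over sham and 0.832 (0.645 to 1.07, adjusted p = 0.565) for feb over ICH. Keap1 (chromosome 9, 21229730 to 21239361, minus strand) was at 11.99, 12.4, and 11.7 RPKM in sham, 13.4, 13.6, and 13.3 in ICH, and 13.6, 11.5, and 14.5 in feb mice. Every ICH value exceeded every sham value, while the feb mice covered both ranges. The fold of ICH over sham was 1.11 (95% interval 0.964 to 1.29, adjusted p = 0.485), and 510 exon bases of Keap1, 10.9% of its exon length, lie opposite exons of Gm16754. Whether the authors' counting used strand is not given in the sources used here, so reads in that stretch may belong to either gene.

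For glutathione synthesis, the members hold the mRNA of both subunits of glutamate-cysteine ligase, the enzyme of its first step. Gclc (chromosome 9, 77754535 to 77794485, plus strand) was at 11.2, 13.8, and 12.7 RPKM in sham, 14.3, 13.9, and 15.1 in ICH, and 16.5, 11.3, and 17.6 in feb mice. The ICH mice lay just above the sham mice, and the feb group held the 2 highest values and 1 of the lowest. The fold was 1.15 for ICH over sham (95% interval 0.890 to 1.48, adjusted p = 0.600) and 1.18 for feb over sham (0.917 to 1.53, adjusted p = 0.681). Without feb 2, the log2 fold change of feb against sham was 0.44 for Gclc and 0.22 for Keap1, and both then had an unadjusted p under 0.05, so this 1 mouse decided whether 0 or 2 members passed. Feb 2 was the lowest feb mouse in 7 of the 10 members and in 41.8% of all genes, and feb 1 was the highest in 7 of the 10 and in 26.5% of all genes. Gclm (chromosome 3, 122245557 to 122270732, plus strand) was at 4.44, 3.996, and 4.20 RPKM in sham, 4.29, 4.29, and 3.85 in ICH, and 4.64, 3.83, and 4.36 in feb mice. The groups overlapped throughout, and the 95% interval of the fold was 0.832 to 1.16 for ICH over sham and 0.872 to 1.22 for feb over ICH. Gm6061 shares 244 of its 492 exon bases with Gclm on the same strand, and its reads equaled 28.8% to 42.8% of those of Gclm. How reads of the shared stretch were assigned is not given, so the level of Gclm is uncertain by an unknown amount. A further 296 exon bases of Gclm lie opposite exons of Gm17494.

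Nqo1 and Txnrd1 encode reductases and are further targets of Nrf2. Nqo1 (chromosome 8, 107388225 to 107403206, minus strand), a quinone reductase widely used as a readout of Nrf2, was at 1.79, 1.21, and 1.47 RPKM in sham, 2.34, 1.49, and 1.48 in ICH, and 1.65, 1.10, and 1.54 in feb mice. Only ICH 1 stood above the other mice. The intervals were wide at this low level, with a fold of 1.17 (95% interval 0.799 to 1.70, adjusted p = 0.697) for ICH over sham and 0.824 (0.565 to 1.20, adjusted p = 0.684) for feb over ICH. Txnrd1 (chromosome 10, 82859206 to 82897724, plus strand), the cytosolic thioredoxin reductase, was at 21.9, 24.8, and 22.9 RPKM in sham, 22.8, 26.7, and 24.9 in ICH, and 24.9, 20.8, and 22.8 in feb mice. All 3 groups overlapped, and the 95% interval of the fold was 0.920 to 1.24 for ICH over sham and 0.793 to 1.07 for feb over ICH. A 2-fold difference between any pair of groups lay outside the 95% intervals of both genes.

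Of the genes that act on ferroptosis directly, Acsl4 promotes it and the others oppose it. Acsl4 (chromosome X, 142317993 to 142390535, minus strand) encodes an acyl-CoA synthetase that loads polyunsaturated fatty acids into membrane lipids. It was at 9.33, 12.8, and 10.9 RPKM in sham, 13.5, 16.6, and 13.3 in ICH, and 12.8, 9.94, and 12.2 in feb mice. Every ICH value exceeded every sham and feb value, with the nearest pairs being 13.3 in ICH 3 against 12.8 in sham 2 and in feb 1. The fold of ICH over sham was 1.32 (95% interval 1.04 to 1.67, log2 fold change 0.40, adjusted p = 0.382), and that of feb over ICH was 0.804 (0.635 to 1.02, log2 fold change -0.31, adjusted p = 0.474). The unadjusted p of ICH against sham was no longer under 0.05 without ICH 2 (log2 fold change 0.29), without sham 1 (0.28), without sham 3 (0.39), or with the samples scaled to equal medians (0.28), as the plot of settings shows.

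Slc7a11 (chromosome 3, 49892526 to 50443614, minus strand), the cystine-importing subunit of system xc-, was at 2.73, 2.36, and 3.0 RPKM in sham, 4.33, 3.47, and 2.31 in ICH, and 2.35, 2.54, and 1.76 in feb mice. ICH 1 and ICH 2 were the highest of all 9 mice, whereas ICH 3 was among the feb values. The fold of feb over ICH was 0.681 (95% interval 0.471 to 0.987, log2 fold change -0.55, adjusted p = 0.441), and that of ICH over sham was 1.21 (0.834 to 1.75, adjusted p = 0.624). The unadjusted p for feb against ICH was under 0.05 here and in 8 of the 16 other settings. It was not under 0.05 without ICH 1 (log2 fold change -0.36), ICH 2 (-0.51), feb 1 (-0.60), or feb 3 (-0.40), nor without any 1 of the sham mice, which enter only through the shared spread, nor in a fit of only the feb and ICH mice (-0.55). Without ICH 3, the log2 fold change was -0.80 for feb against ICH and 0.51 for ICH against sham, each with an unadjusted p under 0.05. Its partner in the transporter, Slc3a2, was at 22.1, 15.1, and 18.0 RPKM in sham, 16.5, 20.2, and 16.3 in ICH, and 17.8, 20.3, and 18.9 in feb mice, and its groups overlapped.

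Gpx4 (chromosome 10, 80047166 to 80056439, plus strand) encodes the glutathione peroxidase that reduces lipid peroxides in membranes. It was at 51.9, 45.7, and 51.5 RPKM in sham, 48.7, 54.1, and 48.5 in ICH, and 51.6, 40.2, and 44.9 in feb mice. The groups overlapped, with feb 2 and feb 3 below the other mice. The fold was 1.02 (95% interval 0.861 to 1.20, adjusted p = 0.944) for ICH over sham and 0.900 (0.763 to 1.06, adjusted p = 0.605) for feb over ICH. At this depth and number of mice, a difference of Gpx4 mRNA as large as 1.5-fold lay outside the intervals of all 3 comparisons.

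**Figure D3:**
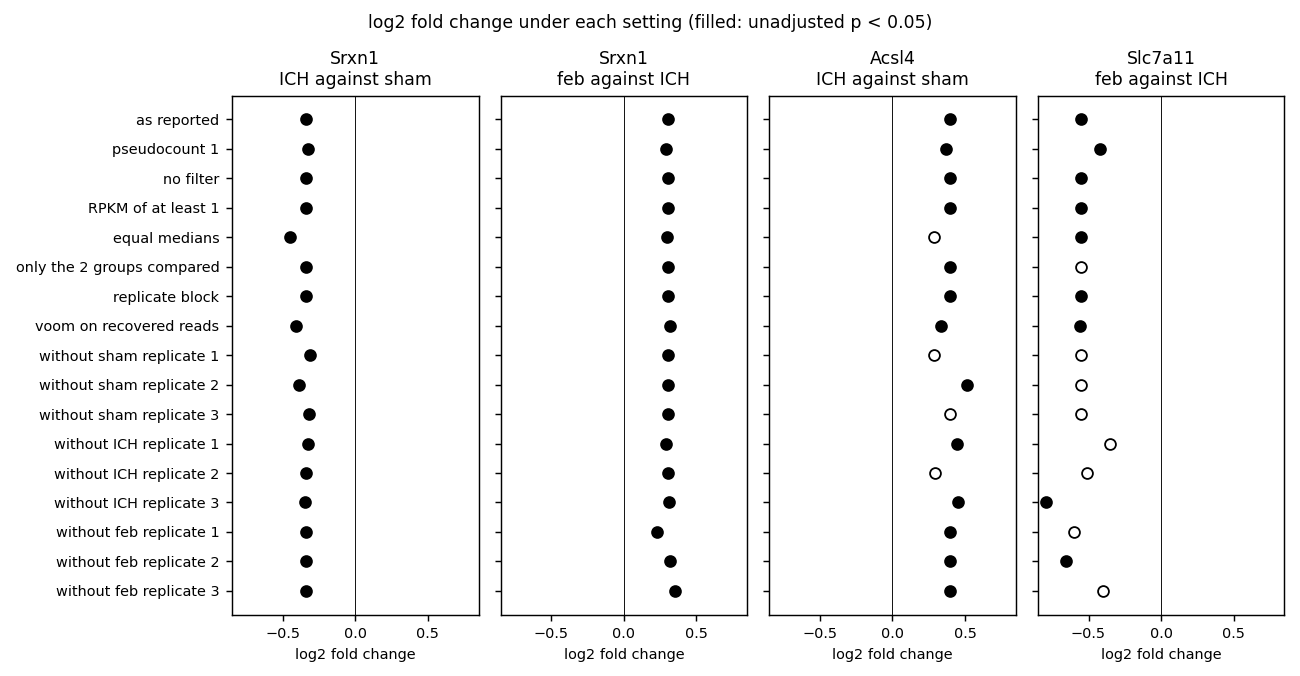
log2 fold change (horizontal axis) of the 4 differences with an unadjusted p under 0.05, as reported (top row) and under each of 16 other settings (rows), with filled circles for an unadjusted p under 0.05. Srxn1 was filled in every row, Acsl4 in 12 of the 16 other settings, and Slc7a11 in 8.

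The 6 lists of related genes extend the view to the rest of the pathway. They hold 77 genes, of which 76 were tested, since Alox15 was below the filter on low values. For ICH against sham, 0 were higher and 3 were lower at an unadjusted p under 0.05, against 7.88% and 4.42% of all genes tested. For feb against ICH, 3 were higher and 7 were lower, against 4.90% and 6.16%, and for feb against sham, 2 were higher and 7 were lower, against 5.63% and 2.90%. The criteria of the study were met by 0, 1 (Gpx8), and 1 (Maff) of the 76 genes. None of these genes passed adjustment. The median log2 fold change of the 76 genes was 0.01, -0.06, and -0.04 in the 3 comparisons.

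**Figure D4:**
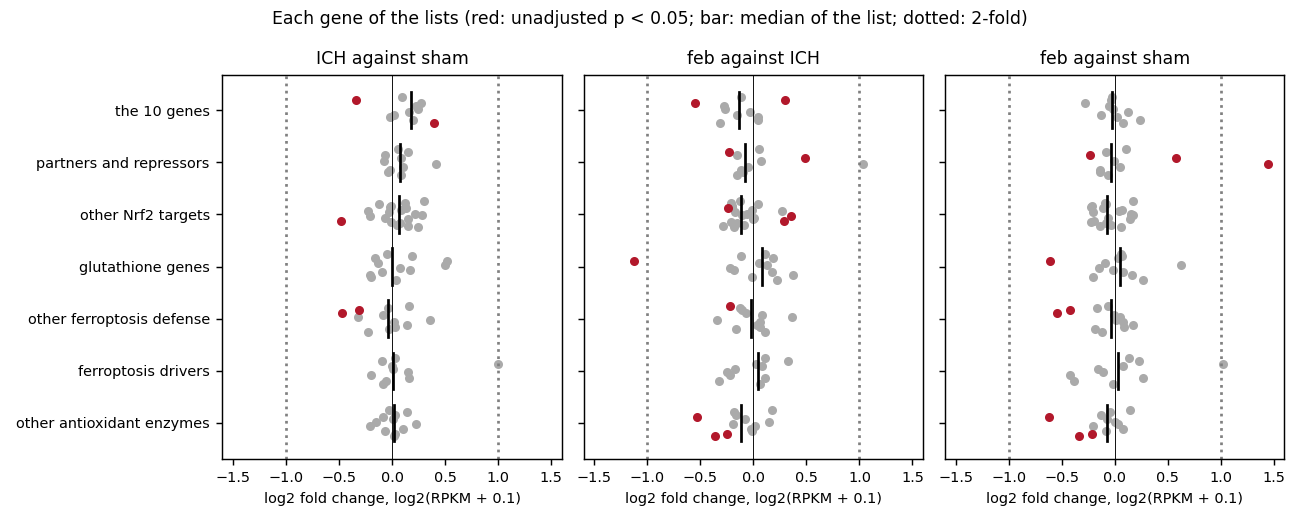
log2 fold change (horizontal axis, log2(RPKM + 0.1) scale) of each gene tested in the 10 members and in the 6 lists (rows), with red points for an unadjusted p under 0.05, black bars for the median of a list, and dotted lines at 2-fold. The medians of the lists lay close to 0, and every list held points on both sides of it in every comparison.

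In what follows, lower and higher stand for an unadjusted p under 0.05. Among 20 further targets of Nrf2, 1 was lower in ICH than in sham mice, where 4.42% of all genes were. In feb against ICH mice, 2 were higher, where 4.90% of all genes were, and 1 was lower, where 6.16% were. The gene lower in ICH than in sham mice was G6pdx, the enzyme that starts the pentose phosphate pathway and supplies NADPH. G6pdx was at 13.7, 10.3, and 13.1 RPKM in sham, 8.17, 9.26, and 8.90 in ICH, and 11.7, 10.4, and 10.1 in feb mice. As for Srxn1, the 3 ICH mice were below all other mice. Its fold was 0.715 for ICH over sham (adjusted p = 0.334) and 1.22 for feb over ICH (adjusted p = 0.437). The p was under 0.05 in 16 of 16 other settings for the first comparison and in 8 of 16 for the second. Gstm1, a glutathione transferase with close relatives in the genome that can share reads, was at 87.5, 76.9, and 82.2 RPKM in sham, 77.0, 72.9, and 64.1 in ICH, and 96.1, 85.2, and 92.4 in feb mice. All feb mice were above all ICH mice (fold 1.28, adjusted p = 0.280), while sham and ICH overlapped. Prdx1, a cytosolic peroxiredoxin, was lower in feb than in ICH mice (fold 0.844, adjusted p = 0.406), and this p was under 0.05 in 8 of 16 other settings. Hmox1, the heme-degrading enzyme and target of Nrf2, was at 4.70, 2.01, and 3.64 RPKM in sham, 4.60, 6.86, and 1.70 in ICH, and 5.29, 1.29, and 6.86 in feb mice. It varied more within groups than between them (fold of ICH over sham 1.16, adjusted p = 0.913). Txn1, the thioredoxin that Txnrd1 reduces, had a fold of ICH over sham of 1.08 (adjusted p = 0.837), and Gsr, glutathione reductase, had a fold of 1.11 (adjusted p = 0.678).

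Among 10 partners and repressors, Mafk and Maff had their highest values in feb 1 and feb 3, and the other small Maf gene, Mafg, did not (8.39, 9.92, and 7.96 RPKM in feb mice, fold of feb over sham 0.997, adjusted p = 0.994). Mafk was at 4.04, 3.35, and 4.21 RPKM in sham, 3.85, 4.37, and 4.06 in ICH, and 6.57, 3.98, and 7.39 in feb mice. Maff was at 1.23, 0.776, and 0.755 RPKM in sham, 0.983, 2.42, and 0.757 in ICH, and 3.98, 1.03, and 4.30 in feb mice. It rested on 42 to 223 reads per sample. For both genes, feb 1 and feb 3 were above all sham and ICH mice and feb 2 was not. The fold of feb over sham was 1.49 for Mafk (adjusted p = 0.565) and 2.73 for Maff (adjusted p = 0.580), and each p was under 0.05 in 11 of 16 other settings. For Maff the p was not under 0.05 without feb 1, feb 3, sham 2, or sham 3, nor with the replicate number as a block, and without feb 2 the log2 fold change was 2.08 in place of 1.45. For feb over ICH, the fold of Mafk was 1.40 (adjusted p = 0.447), and its unadjusted p was under 0.05 in 6 of 16 other settings. Rbx1, the ring subunit of the ligase that Keap1 serves, was lower in feb than in ICH mice (fold 0.851, adjusted p = 0.357), but not without ICH 1. Nfe2l1, a factor related to Nrf2, was lower in feb than in sham mice (fold 0.852, adjusted p = 0.565), but not without feb 3 or sham 1.

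Gpx8, a peroxidase of the endoplasmic reticulum, was the only 1 of 12 glutathione genes to meet the criteria of the study, in feb against ICH. In that comparison, 2.43% of all genes tested met them. Gpx8 was at 2.53, 1.62, and 1.79 RPKM in sham, 2.65, 3.56, and 2.37 in ICH, and 1.38, 1.40, and 0.981 in feb mice. The feb values rested on only 37, 36, and 23 reads. All feb mice were below all sham and ICH mice. The fold of feb over ICH was 0.459 (adjusted p = 0.219), with a p under 0.05 in 16 of 16 other settings, and that of feb over sham was 0.655 (adjusted p = 0.565), with a p not under 0.05 without feb 3 or sham 1. Most of the choroid plexus, microglia, endothelial, and red blood cell markers given above were also lower in feb than in ICH mice. Their part in the difference of Gpx8 was not tested.

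Among 12 other genes of the defense against ferroptosis, the stearoyl-CoA desaturases Scd1 and Scd2, which make monounsaturated fatty acids, were lower in ICH than in sham mice. Scd2 was at 150.7, 126.3, and 146.9 RPKM in sham, 111.9, 107.6, and 120.6 in ICH, and 102.8, 123.0, and 92.5 in feb mice. Its fold was 0.804 for ICH over sham (adjusted p = 0.382) and 0.748 for feb over sham (adjusted p = 0.565), and that of Scd1 was 0.719 (adjusted p = 0.386) and 0.686 (adjusted p = 0.565). The p for ICH against sham was under 0.05 in 11 of 16 other settings for each gene, and not without ICH 1, ICH 2, sham 1, or sham 3. The summed RPKM of 4 oligodendrocyte markers, none of which was at 0 and none of which had a p under 0.05 in these comparisons, was 412 to 605 in sham, 321 to 575 in ICH, and 287 to 503 in feb mice, and its part was not tested. Vkorc1l1, a vitamin K reductase, was lower in feb than in ICH mice (fold 0.858, adjusted p = 0.419), with a p under 0.05 in 7 of 16 other settings. Aifm2, which encodes the ferroptosis suppressor FSP1, had a fold of ICH over sham of 0.852 (adjusted p = 0.498).

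Of 12 other antioxidant enzymes, Cat, Prdx2, and Sod3 were lower in feb than in ICH mice, where 6.16% of all genes were, and lower in feb than in sham mice, where 2.90% were. Cat, which encodes catalase, was at 12.2, 9.82, and 10.8 RPKM in sham, 10.7, 11.9, and 10.6 in ICH, and 8.25, 9.61, and 8.05 in feb mice. Prdx2, a peroxiredoxin abundant in neurons and red blood cells, was at 12.6, 13.2, and 12.7 RPKM in sham, 13.1, 12.9, and 13.3 in ICH, and 11.8, 10.9, and 10.3 in feb mice. The feb mice did not overlap the other groups for either gene. The fold of feb over ICH was 0.780 for Cat (adjusted p = 0.324), 0.843 for Prdx2 (adjusted p = 0.314), and 0.692 for Sod3, the extracellular superoxide dismutase (adjusted p = 0.443). The fold of feb over sham was 0.793, 0.860, and 0.652 (adjusted p = 0.565 for each). For feb against ICH the p was under 0.05 in 16 of 16 other settings for Cat and Prdx2 and in 8 of 16 for Sod3, and for feb against sham it was so in 14, 15, and 13 of 16. In the feb mice, 6 of 6 choroid plexus and 4 of 5 microglia markers were also lower than in ICH mice. So were 3 of 4 endothelial and 4 of 5 red blood cell markers. Against sham mice, 6, 0, 3, and 3 markers of these 4 lists were lower. The summed RPKM of red blood cell genes was 17.1 to 21.6 in feb against 26.7 to 123.8 in ICH mice. The part of these markers in the differences of Cat, Prdx2, and Sod3 was not tested. Groups did not overlap, in either direction, for 19.4% of all genes tested in ICH against sham, 17.2% in feb against ICH, and 12.7% in feb against sham. Among the 10 members, this was so for 4, 2, and 0. In ICH against sham, all ICH values were above the sham values for Keap1, Gclc, and Acsl4 and below them for Srxn1. In feb against ICH, all feb values were above the ICH values for Srxn1 and below them for Acsl4. Among 11 further genes linked to ferroptosis, 0 of the 10 tested had an unadjusted p under 0.05 in limma in any comparison.

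**Figure D5:**
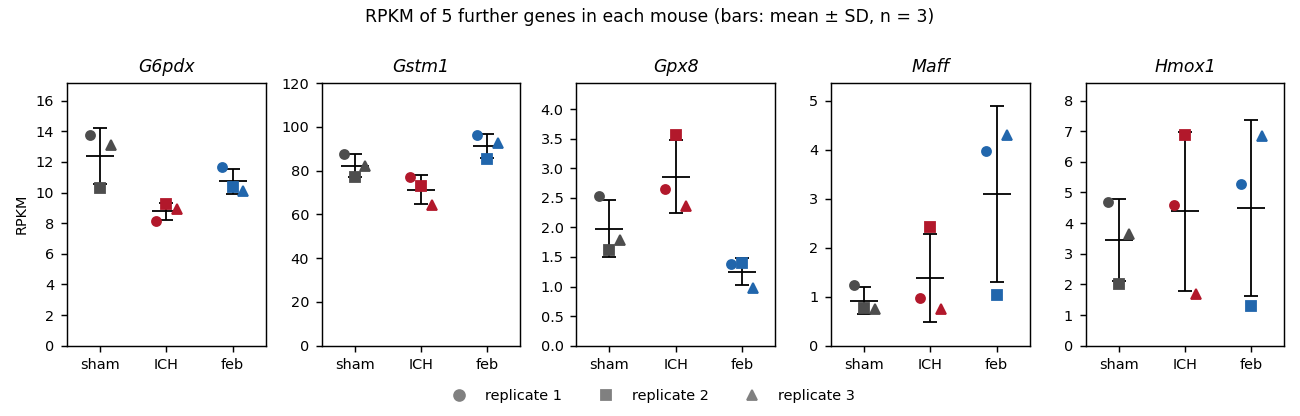
RPKM (vertical axes, from 0) of G6pdx, Gstm1, Gpx8, Maff, and Hmox1 in each mouse by group (horizontal axes), with the replicate number as the symbol and the mean ± SD of 3 mice as black bars. G6pdx was lowest in the 3 ICH mice (8.17 to 9.26), and Gpx8 was lowest in the 3 feb mice (0.981 to 1.40). Maff was high in feb 1 and feb 3 but not in feb 2. Hmox1 varied within every group, and it was highest in ICH 2, followed by feb 3 and feb 1.

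Xdh, which encodes the enzyme that febuxostat inhibits, was at 1.20, 0.792, and 1.36 RPKM in sham, 2.18, 2.29, and 1.31 in ICH, and 2.73, 1.20, and 4.07 in feb mice. ICH 3 and feb 2 lay within the range of the sham mice, and Xdh met the criteria of the study for feb against sham (fold 2.09, adjusted p = 0.580). The unadjusted p was not under 0.05 without feb 1, feb 3, sham 1, or sham 2.

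The genes whose log2(RPKM + 0.1) followed 3 of the members most closely over the 9 samples were sought among 17660 genes. These were Thap2 (Pearson's r = 0.94) and Mpdz (0.93) for Nfe2l2, Rnpepl1 (0.94) and Prelp (0.93) for Slc7a11, and Fcer1g (0.96) for Gpx4. These values describe the closest of many genes in 9 samples that share their group differences and cell makeup, and no test was made of them.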

How the data were processed

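Brain RNA of 9 mice was measured, with 3 samples in each group taken from the sample labels. The authors depleted rRNA, prepared stranded libraries with UMIs, trimmed reads (Trimmomatic 0.36), merged reads sharing a UMI, aligned them to GRCm38, counted them on exons (featureCounts, Subread 1.5.1), and deposited RPKM values. The annotation release and the handling of strand and of multiply assigned reads are not given in the sources used here, so genes with overlaps or near-identical copies are uncertain. The study tested counts. Since the deposited values are RPKM, limma 3.58.1 (R 4.3.3, lmFit and eBayes with trend) was used on log2(RPKM + 0.1), keeping genes that reached 0.1 RPKM in 3 or more samples, with all 9 samples and no block. This scale understates changes of low genes. P-values are two-sided, and adjustment was by Benjamini-Hochberg across the 29025 genes tested.

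RPKM multiplied by exon length and scaled gave whole reads (within 0.05) for 100% of the values checked. Values of 0 and those with the most reads were left out of this check. The reads recovered for all genes were used with voom as an alternative. The other settings were a pseudocount of 1, no filter, a minimum of 1 RPKM, medians made equal, a fit of only the 2 groups compared, a replicate block, and each mouse left out. The filters, the fit of only the 2 groups, and the block leave a fold change as it is and alter only its p. The same holds for leaving out a mouse of the group outside the comparison. Gene positions and exon overlaps were computed from the coordinates in the deposited table. The test was tried on simulated data. The 10 genes and the lists of related and marker genes were chosen with earlier results of these data known. The related genes named are, by list and comparison, those that were called and up to 3 with the lowest p under 0.05, with Hmox1, Txn1, Gsr, Slc3a2, Aifm2, and Xdh in any case. For 3 members the genes with the closest pattern are also named, and 1 of these is not reported here. Python 3.11.15 was used for tables.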

Additional observations from a re-analysis of the deposited data

How the results depend on the processing

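Of the 30 fold changes of the members, those of Srxn1 for ICH against sham and for feb against ICH kept an unadjusted p under 0.05 in all 16 other settings. Over all fold changes of members and settings, 434 kept their direction and their side of this threshold, 27 changed sign, 12 no longer passed, and 10 newly passed. The 27 that changed sign were of values near 0. The fold change itself could not move under the other filters, the fit of only the groups compared, or the replicate block. Nor could it move when a mouse outside the comparison was left out. These settings varied only the p, so the count of 434 is not a test of direction in every setting. Scaling to equal medians moved the median of all genes from 0.05 to -0.05 for feb against sham and from 0.08 to -0.02 for ICH against sham, and it gave -0.019 for Txnrd1 and -0.091 for Gpx4 (ICH against sham) and -0.095 for Gclm and -0.034 for Acsl4 (feb against sham). With voom, Gpx4 was at -0.046 for ICH against sham and Gclm at -0.035 for feb against sham. Without the reads of Gm6061, an alternative added after the data were seen, Gclm was at 0.11 for ICH against sham and -0.048 for feb against ICH.

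The number of members with a p under 0.05 for ICH against sham was 1 under equal medians and 1 to 3 with each mouse left out. For feb against ICH it was 1 in a fit of only those 2 groups and 1 to 3 with each mouse left out, and for feb against sham it was 0 to 2. The number of all genes called was 346, 287, and 263 in the 3 comparisons with an RPKM of at least 1 and 158, 128, and 91 with a pseudocount of 1, since differences of low genes shrink on that scale. With each mouse left out it was 619 to 1299, 615 to 932, and 462 to 1150, and the number of genes with a p under 0.05 was 1882 to 5371, 2147 to 3567, and 1145 to 4081. The highest counts were without sham 2 for ICH against sham and without feb 2 or sham 2 for feb against sham. Among genes with a p under 0.05, 2288 were higher and 1282 lower for ICH against sham as reported, 1185 and 2037 with equal medians, and 1828 and 1916 with voom. For feb against sham these were 1635 and 843, 1042 and 1479, and 1411 and 1204. The cause of these shifts was not tested.

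With each mouse left out, the log2 fold change ranged, for ICH against sham, from -0.061 to 0.026 for Gclm and from -0.037 to 0.055 for Gpx4. For feb against ICH it ranged from -0.10 to 0.064 for Keap1, from -0.080 to 0.24 for Gclc, and from -0.016 to 0.12 for Gclm. For feb against sham it ranged from -0.11 to 0.095 for Nfe2l2, from -0.19 to 0.11 for Nqo1, from -0.041 to 0.095 for Gclm, from -0.11 to 0.013 for Srxn1, from -0.089 to 0.040 for Txnrd1, and from -0.031 to 0.20 for Acsl4.

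Same-numbered samples of different groups did not deviate together (r from -0.13 to 0.02, against -0.12 to 0.17 for different numbers). What the numbers stand for is not given, and 3 mice per group are too few to show whether they mark a batch. With the replicate number as a block, 2, 2, and 0 members had a p under 0.05, the same counts as without it, and 717, 684, and 615 genes were called. Among the members, depth limits mainly Nqo1, which rested on under 90 reads in each sample. It also limits Gpx8, with 23 to 95 reads per sample, and Maff, with 42 to 223.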
